A study of Mus musculus with 11 samples.

Results

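Markers of Purkinje cells, GABAergic interneurons, and unipolar brush or cerebellar nuclear neurons were read in RNA-Seq libraries of granule cell precursors (GCps) purified from the mouse cerebellum at P7 (postnatal day 7). The 32 genes were listed by name as known markers of these neurons, out of the 38924 genes counted. They comprise 12 Purkinje cell markers, 9 GABAergic interneuron markers, 7 markers of unipolar brush or nuclear neurons, and 4 further genes of interneurons (Dlx6os1, Gjd2, Sst and Npy) that were kept apart because they are best known from other brain regions or from only some cerebellar interneurons. The study deleted Chd7, which encodes a chromatin remodeler, from GCps to ask which genes it controls there. There were 2 control libraries, labelled wild type and Chd7flox/+, and 2 conditional knockout (cko) libraries, labelled Chd7-deficient and Math1cre;Chd7flox/flox, all on C57Bl/6J. The submitters' extraction notes give the control genotype as 2 floxed alleles without Cre instead. The tissue, from which lobules IX and X had been removed, was pooled by genotype, digested with papain and run on a Percoll gradient, so the libraries hold whatever cells reach the GCp fraction. The study's chromatin samples were not analysed here.

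In the cerebellum, Purkinje cells and GABAergic interneurons arise from the ventricular zone, where Ptf1a acts. Granule cells, unipolar brush cells and glutamatergic nuclear neurons arise instead from the rhombic lip, where Atoh1 (also called Math1) acts. The Math1-Cre transgene is therefore active in rhombic lip derivatives and not in the ventricular zone lineage. Purkinje cells secrete Sonic hedgehog, the mitogen of GCps. Several of the listed marker genes, in each class, are also transcribed in other cells, which is why each class was examined gene by gene.

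The libraries held between 61836588 and 77346481 counts. Levels are given as CPM, which are counts relative to the library's total after TMM scaling, and 1 count corresponded to 0.0130 to 0.0166 CPM. Levels of single genes were compared with each other by CPM per kb of exon. Shares of a list were taken from counts or CPM, and lists were summed in CPM or in CPM per kb. Zic1, a granule lineage transcription factor gene, stood between 1485 and 1707 CPM, and Atoh1 between 25.6 and 37.0 CPM, and these defining genes of the labelled cell type were thus present. Chd7 itself was at 322 and 319 CPM in control and 392 and 355 CPM in cko libraries (log2 fold change 0.22 ± 0.10, edgeR's quasi-likelihood adjusted p = 0.418). In what follows, ± after a log2 fold change gives its standard error, and fold changes are cko against control. The count of Chd7 covers the whole gene and does not check a deletion of exons. Reln, which encodes the extracellular protein reelin, stood at 783 and 792 CPM in control and at 331 and 335 CPM in cko libraries (log2 fold change -1.24 ± 0.10, adjusted p = 0.00710). Xist reached 793 CPM in cko replicate 1, against 0.114 to 0.548 CPM elsewhere, and the Y-linked gene Ddx3y had 0 CPM in that library alone, so the sex of the animals differed between the cko libraries, which therefore came from different animals. For the control libraries nothing used here says whether the animals were separate, and the p-values reflect no more than the spread among these 4 libraries, which may in part be technical. For a single value, the smallest p that an exact two-sided permutation test can reach with 2 libraries per genotype is 0.333.

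Promoter sequence is shown for 3 markers: Pcp2, whose promoter is widely used to drive transgenes in Purkinje cells and which was nearly absent here, and Eomes and Tbr1, the T-box genes of the rhombic lip lineage that stood far apart in level and of which 1 differed between the genotypes. The sequences are parts of RefSeq windows on GRCm38.p6 that end 1 base before the annotated start site, written 5′ to 3′. For Eomes and Tbr1 they hold 250 bases. The Pcp2 sequence was cut to 30 bases because an untranslated region of another gene lies beyond it. Capitals mark matches on either strand to AGGTCA, an element bound by nuclear receptors such as the product of Rora, to GGTGTGA, a core bound by T-box factors, or to TAATTA, a core bound by homeodomain factors. No base belongs to matches of more than 1 of these motifs in the sequences shown.
Pcp2, chr8:3625548-3625577, minus strand: cttttaaaaggccttctcAGGTCAgagacc
Eomes, chr9:118477939-118478188, plus strand: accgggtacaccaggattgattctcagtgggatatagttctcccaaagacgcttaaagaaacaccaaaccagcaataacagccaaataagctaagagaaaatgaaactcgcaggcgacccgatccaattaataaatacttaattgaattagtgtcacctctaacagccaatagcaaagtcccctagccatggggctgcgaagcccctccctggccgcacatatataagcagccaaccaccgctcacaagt
Tbr1, chr2:61804203-61804452, plus strand: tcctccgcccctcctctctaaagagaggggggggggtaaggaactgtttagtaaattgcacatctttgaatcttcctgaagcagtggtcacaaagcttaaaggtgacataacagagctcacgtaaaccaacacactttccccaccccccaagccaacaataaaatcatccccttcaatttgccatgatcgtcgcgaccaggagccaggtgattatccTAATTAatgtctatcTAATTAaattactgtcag

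The Tbr1 window holds 2 TAATTA matches, which begin 33 and 18 bases before the start site and lie within an exon of a noncoding Tbr1 transcript in GENCODE, and the Pcp2 window holds an AGGTCA match that begins 12 bases before it. RefSeq windows were found for 26 of the 32 markers, and not for Itpr1, Ppp1r17, Lhx5, Foxp2, Skor2 and Shh. Searched over the full window of 300 bases, AGGTCA was found in 2 of these 26 markers (Pcp2 and Pcp4) and in 16.3% of all 32851 windows. TAATTA was found in 3 markers (Tfap2a, Tbr1 and Dlx6os1) and in 5.29% of all windows, and GGTGTGA in 0 markers and in 3.98% of all windows. These matches describe the letters of the windows only.

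**Figure D1:**
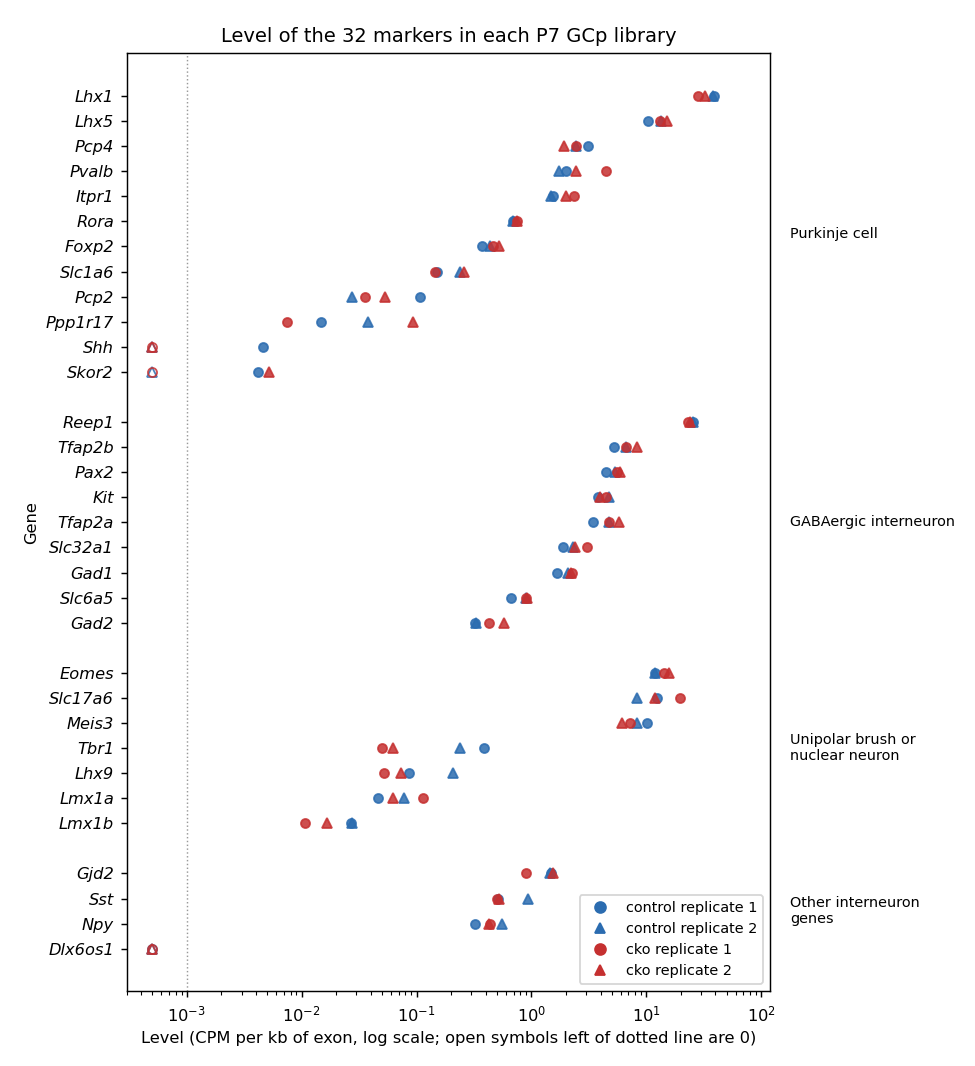
Level of each of the 32 markers in CPM per kb of exon (horizontal log axis) by gene and class (vertical axis); blue symbols are control and red symbols cko libraries, circles replicate 1 and triangles replicate 2, and open symbols left of the dotted line are values of 0. Purkinje cell markers run from above 30 CPM per kb (Lhx1, control mean 38.3) to near 0 (Skor2 and Shh), whereas all 9 GABAergic interneuron markers lie above 0.3 CPM per kb.

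Purkinje cell markers did not stand at a common level: the LIM homeodomain genes Lhx1 and Lhx5 were abundant, while Pcp2, Ppp1r17, Skor2 and Shh were at or near 0. Lhx1 (chromosome 11, 84518284 to 84525535 on GRCm38) averaged 38.3 CPM per kb in control libraries and Lhx5 11.9 CPM per kb. Over all 4 libraries the mean of Lhx1 lay above that of 93.4% of genes with a count. Lhx1 and Lhx5 encode transcription factors of early Purkinje cells, and together they made up 79.4% of the control counts of the 12 genes. The calcium handling genes came next, with Pcp4, whose product binds calmodulin, at 2.77, Pvalb, which encodes the calcium buffer parvalbumin, at 1.87, and Itpr1, which encodes the IP3 receptor of the endoplasmic reticulum, at 1.51 CPM per kb. The nuclear receptor gene Rora stood at 0.698 and the forkhead gene Foxp2 at 0.404 CPM per kb. Slc1a6, which encodes the glutamate transporter of Purkinje cell dendrites, stood at 0.195 CPM per kb.

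Pcp2, Ppp1r17, Skor2 and Shh were represented by at most 15 counts in any library, and were set apart with their counts known. Slc1a6, also known as specific for Purkinje cells, had 25 and 31 counts in control and 24 and 34 counts in cko libraries. Pcp2, which encodes a regulator of G proteins, had 15 and 3 counts in control replicates 1 and 2 and 5 and 6 counts in cko replicates 1 and 2. Ppp1r17, which encodes a phosphatase inhibitor, had 2, 4, 1 and 10 counts in the same order. Skor2, a corepressor gene needed for Purkinje cell differentiation, had 1 count each in control replicate 1 and cko replicate 2 and 0 elsewhere, and Shh had 1 count in control replicate 1 and 0 elsewhere. No genotype stood apart from the other in these 4 genes, and none passed the expression filter of the test. A count of 0 allows up to 3 counts, or 0.0389 to 0.0497 CPM depending on the library, and such limits cover counting error only. Together with Slc1a6 these genes summed to 44 and 38 counts in control and 30 and 51 counts in cko libraries, which is 0.253% of the control counts of the Purkinje cell list. Of the exonic length of Pcp2, 51.5% overlaps Pet100 on the opposite strand, and 28.3% of that of Shh overlaps other genes in the same way. For Pcp4, 23.7% overlaps Igsf5 on the same strand. Reads in these stretches cannot all be assigned with certainty, and the counts may be too low there.

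Of the 8 Purkinje cell markers that could be tested, none passed edgeR's quasi-likelihood test between the genotypes (threshold for the adjusted p 0.05). Before adjustment 3 were under 0.05, and 1 passed in DESeq2. Of all 16436 genes tested, 1.58% passed edgeR's test, and 13.6% were under 0.05 before adjustment. DESeq2 called 5.53% of the 16082 genes to which it gave an adjusted p. Itpr1 stood at 28.3 and 27.0 CPM in control and at 43.1 and 36.3 CPM in cko libraries, with both cko libraries above both controls. Its log2 fold change was 0.52, with a standard error of 0.12 and an adjusted p of 0.111 by edgeR. It was the marker that passed in DESeq2 (adjusted p = 0.0125), and its adjusted p ranged from 0.0125 to 0.443 over 8 alternatives. Pvalb stood at 2.08 and 1.82 CPM in control and at 4.63 and 2.57 CPM in cko libraries, so that cko replicate 1 was high and cko replicate 2 lay close to the controls (log2 fold change 0.89 ± 0.31, adjusted p = 0.270). Lhx1 ran the other way, at 158 and 154 CPM in control and 115 and 131 CPM in cko libraries, again without overlap (log2 fold change -0.34 ± 0.10, adjusted p = 0.194). Lhx5, its close relative, was at 28.1 and 35.8 CPM in control and 35.3 and 40.4 CPM in cko libraries, which overlap (log2 fold change 0.25, adjusted p = 0.574). The levels of Rora were nearly the same in all libraries, at 9.13 and 9.12 CPM in control and 9.83 and 9.79 CPM in cko libraries. The remaining tested genes Foxp2, Pcp4 and Slc1a6 had log2 fold changes of 0.27, -0.34 and 0.04 and adjusted p of 0.602, 0.654 and 0.985. A p that misses the threshold with 2 libraries per genotype does not show that the levels are equal.

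A list of 15 further Purkinje cell genes gave a similar picture. None of the 14 that were tested passed edgeR's quasi-likelihood test, 3 were under 0.05 before adjustment, and 2 passed in DESeq2. The gene with the highest level per kb was Homer3, which encodes a postsynaptic scaffold protein, at 13.2 CPM per kb in control and 10.9 CPM per kb in cko libraries. Calb1, the calbindin gene widely used to stain Purkinje cells, stood at only 0.229 CPM per kb in control libraries.

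GABAergic interneuron markers were all present, at lower levels than Lhx1, and none passed the test between the genotypes. Of the 9 fold changes 7 pointed to higher values in the cko libraries, against 8201 of all 16436 genes tested. Reep1, which encodes a shaping protein of the endoplasmic reticulum, led the list with 25.5 CPM per kb in control libraries. It was followed by the AP-2 transcription factor gene Tfap2b (5.98), Pax2, a transcription factor gene of newly formed inhibitory interneurons (4.88), the receptor tyrosine kinase gene Kit (4.29) and Tfap2a (4.10 CPM per kb). The genes of inhibitory transmission were lower: Slc32a1, which encodes the vesicular transporter of GABA and glycine, stood at 2.11, Gad1 at 1.86, Slc6a5, which encodes the neuronal glycine transporter, at 0.775 and Gad2 at 0.325 CPM per kb. Gad1 and Gad2 encode the enzymes that make GABA, and these enzymes and Slc32a1 also serve Purkinje cells. Of the exonic length of Slc32a1, 24.9% overlaps a gene on the opposite strand, as does 14.6% of that of Tfap2a.

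None of the 9 interneuron markers passed between the genotypes in edgeR's quasi-likelihood test, and 0 passed in DESeq2. Before adjustment 1 was under 0.05 (Gad2), against 13.6% of all genes tested. Gad2 stood at 1.88 and 1.94 CPM in control and at 2.53 and 3.38 CPM in cko libraries, with the cko libraries above both controls (log2 fold change 0.63 ± 0.24, adjusted p = 0.309). Gad1 stood at 12.7 and 15.8 CPM in control and at 17.1 and 17.0 CPM in cko libraries (log2 fold change 0.26, adjusted p = 0.546). Pax2 was at 24.1 and 28.6 CPM in control and at 29.98 and 31.9 CPM in cko libraries (log2 fold change 0.23, adjusted p = 0.520). For each of these 3 genes the genotypes did not overlap. For Gad1 and Pax2 the gap between the genotypes was smaller than the gap between the control libraries. For Gad2 it was larger than the gap between the control libraries but smaller than that between the cko libraries. Tfap2b stood at 33.2 and 42.6 CPM in control and at 42.2 and 52.7 CPM in cko libraries. Its relative Tfap2a was at 16.9 and 23.2 CPM in control and at 23.1 and 28.6 CPM in cko libraries. In both AP-2 genes replicate 2 was the higher library of each genotype, and the genotypes overlapped. Slc32a1 stood at 5.30 and 6.48 CPM in control and at 8.58 and 6.67 CPM in cko libraries, with cko replicate 1 alone clearly high (log2 fold change 0.37, adjusted p = 0.515). Slc6a5 was at 4.74 and 6.43 CPM in control and at 6.43 and 6.63 CPM in cko libraries, with control replicate 1 alone low (log2 fold change 0.23, adjusted p = 0.729). Reep1 was at 106 and 104 CPM in control and 94.9 and 99.2 CPM in cko libraries (log2 fold change -0.11 ± 0.09, adjusted p = 0.684), and Kit had a log2 fold change of -0.03 (standard error 0.14). Over the 9 genes 7 log2 fold changes were above 0, with a median of 0.26, against a median of -0.00056 over all genes tested. The genotypes did not overlap for 5 of the 9 as higher and 1 as lower in the cko libraries. Among all genes tested these shares were 22.7% and 21.2%. Without control replicate 1, the log2 fold changes of Gad1, Slc32a1, Slc6a5, Tfap2a, Tfap2b and Pax2 were 0.11, 0.23, 0.02, 0.15, 0.16 and 0.11. Without control replicate 2 they were 0.43, 0.53, 0.46, 0.61, 0.51 and 0.36. For Gad2 the log2 fold changes were 0.61 and 0.65 in the same settings.

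The other 4 interneuron genes were low. Dlx6os1, a noncoding RNA gene of forebrain interneurons, had 0 counts in all 4 libraries. The peptide genes Sst and Npy stood at 0.725 and 0.440 CPM per kb in control libraries. Gjd2, which encodes a neuronal gap junction protein, stood at 4.30 and 4.21 CPM in control and at 2.58 and 4.46 CPM in cko libraries, so that cko replicate 1 alone was low. None of the 3 tested genes passed in edgeR's quasi-likelihood test, 0 had an unadjusted p under 0.05 and 0 passed in DESeq2 (lowest adjusted p = 0.712 in edgeR's test). In a list of 9 further interneuron genes 0 passed by edgeR, 2 were under 0.05 before adjustment and 1 passed in DESeq2. The shares among all genes were 1.58%, 13.6% and 5.53% in the same order. Ptf1a, the fate gene of the ventricular zone lineage, stood at 2.42 and 2.80 CPM in control and 3.25 and 2.47 CPM in cko libraries, and 40.4% of its exonic length overlaps its antisense gene. Nxph1, which encodes a neurexin ligand and is named after its values were seen, stood at 2.19 and 3.46 CPM in control and at 0.765 and 1.24 CPM in cko libraries (log2 fold change -1.50 ± 0.35, adjusted p = 0.107).

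Markers of unipolar brush and nuclear neurons held the only one of the 32 genes that passed the test. Tbr1, a T-box transcription factor gene of glutamatergic neurons of the nuclear zone (ENSMUSG00000035033, chromosome 2, 61802930 to 61814114 on GRCm38), had 161 and 79 counts in control and 21 and 21 counts in cko libraries. As levels these are 2.10 and 1.31 CPM against 0.272 and 0.341 CPM. Tbr1 fell from 1.71 ± 0.560 to 0.307 ± 0.0489 CPM (SD, n = 2 in each genotype), with a log2 fold change of -2.48 ± 0.36 (standard error) and an adjusted p of 0.0348 by edgeR's quasi-likelihood model. The share of all genes tested that were lower at this threshold was 0.773%. Tbr1 is a gene of low level here, at 0.311 CPM per kb in control libraries, and its control libraries differed from each other by more than its cko libraries did. Its call was lost without control replicate 1 (adjusted p = 0.0582) and without cko replicate 1 (adjusted p = 0.0721). Over 8 alternatives its log2 fold change ranged from -2.78 to -2.09 and its adjusted p from 0.000104 to 0.0721.

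**Figure D2:**
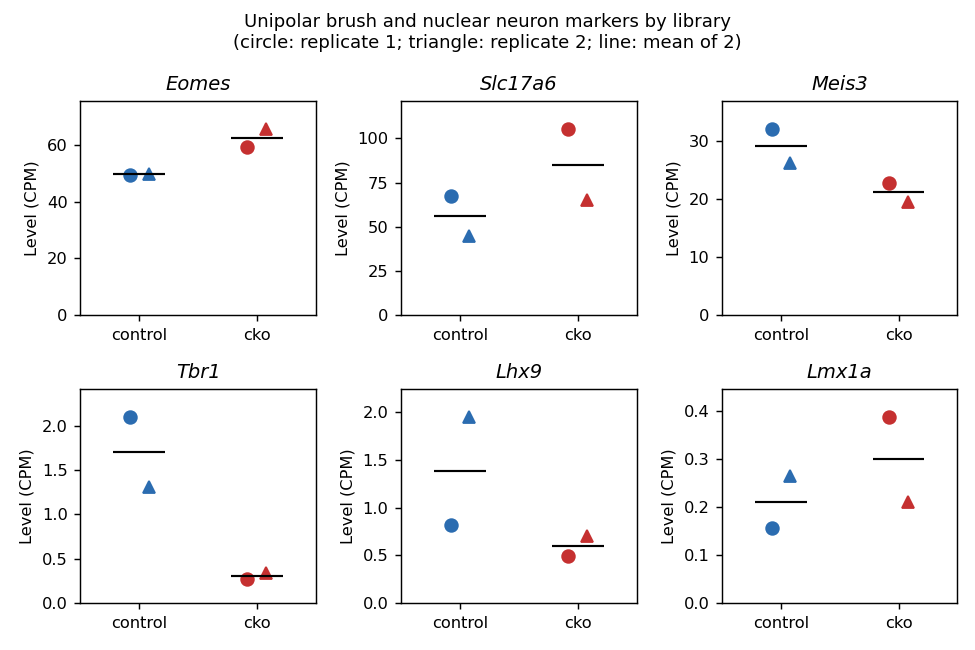
Level in CPM (vertical axes, from 0) of 6 unipolar brush and nuclear neuron markers in control (blue) and cko (red) libraries; circles are replicate 1, triangles replicate 2 and black lines the mean of 2 libraries. Tbr1 stands at 2.10 and 1.31 CPM in control and at 0.272 and 0.341 CPM in cko libraries, whereas Eomes is higher in both cko libraries.

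The other genes of this class did not all follow Tbr1: Meis3, Lhx9 and Lmx1b were lower in both cko libraries, whereas Eomes was higher. Slc17a6 and Lmx1a overlapped between the genotypes and had positive fold changes. Eomes, the T-box gene that marks unipolar brush cells, stood at 49.3 and 49.8 CPM in control and at 59.2 and 65.7 CPM in cko libraries, without overlap (log2 fold change 0.33 ± 0.10, adjusted p = 0.200). Per kb, Eomes (11.9 CPM per kb in control libraries) was far more abundant than Tbr1. Slc17a6, which encodes a vesicular glutamate transporter, stood at 67.3 and 44.7 CPM in control and at 105 and 64.9 CPM in cko libraries. Replicate 1 was the higher library in both genotypes, the genotypes overlapped, and the log2 fold change was 0.61 (standard error 0.32, adjusted p = 0.550). Meis3, a homeobox gene, was at 32.1 and 26.2 CPM in control and 22.7 and 19.5 CPM in cko libraries, without overlap (log2 fold change -0.46 ± 0.14, adjusted p = 0.207). Lhx9, a LIM homeodomain gene of nuclear neurons, was at 0.822 and 1.96 CPM in control and at 0.493 and 0.699 CPM in cko libraries. The genotypes did not overlap, and control replicate 2 alone was high (log2 fold change -1.22 ± 0.46, adjusted p = 0.317). Lmx1a and Lmx1b, LIM homeodomain genes of the rhombic lip lineage, were low. Lmx1a had 12 and 16 counts in control and 30 and 13 counts in cko libraries (log2 fold change 0.54, adjusted p = 0.744), and Lmx1b had 10, 8, 4 and 5 counts and was not tested. In this class 1 of 6 tested genes passed edgeR's quasi-likelihood test, 4 had an unadjusted p under 0.05, and the median log2 fold change was -0.07. Among all genes tested 1.58% passed and 13.6% were under 0.05 before adjustment. The genotypes did not overlap for 3 of the 6 as lower (Tbr1, Meis3 and Lhx9) and for 1 as higher (Eomes). Among all genes tested these shares were 21.2% lower and 22.7% higher.

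Of 5 further genes of unipolar brush or nuclear neurons none passed edgeR's quasi-likelihood test, 4 had an unadjusted p under 0.05 and 1 passed in DESeq2. Among all genes 13.6% were under 0.05 before adjustment and 5.53% passed in DESeq2. Spp1, which encodes the secreted protein osteopontin and had the highest level per kb, was at 64.2 and 60.4 CPM in control and at 55.7 and 45.9 CPM in cko libraries. Spp1 is also transcribed in microglia, and the summed level of 8 microglial markers was between 241 and 276 CPM in control and between 263 and 272 CPM in cko libraries. Lhx2, a LIM homeodomain gene picked out after its values had been seen, stood at 4.48 and 5.04 CPM in control and at 2.14 and 2.23 CPM in cko libraries, the log2 fold change being -1.12 (standard error 0.20, adjusted p = 0.0517). Otx2 and Calb2 of the same list had log2 fold changes of 0.34 and 0.80 and adjusted p of 0.218 and 0.150, each with both cko libraries above both controls. The cells that held these transcripts were not identified.

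**Figure D3:**
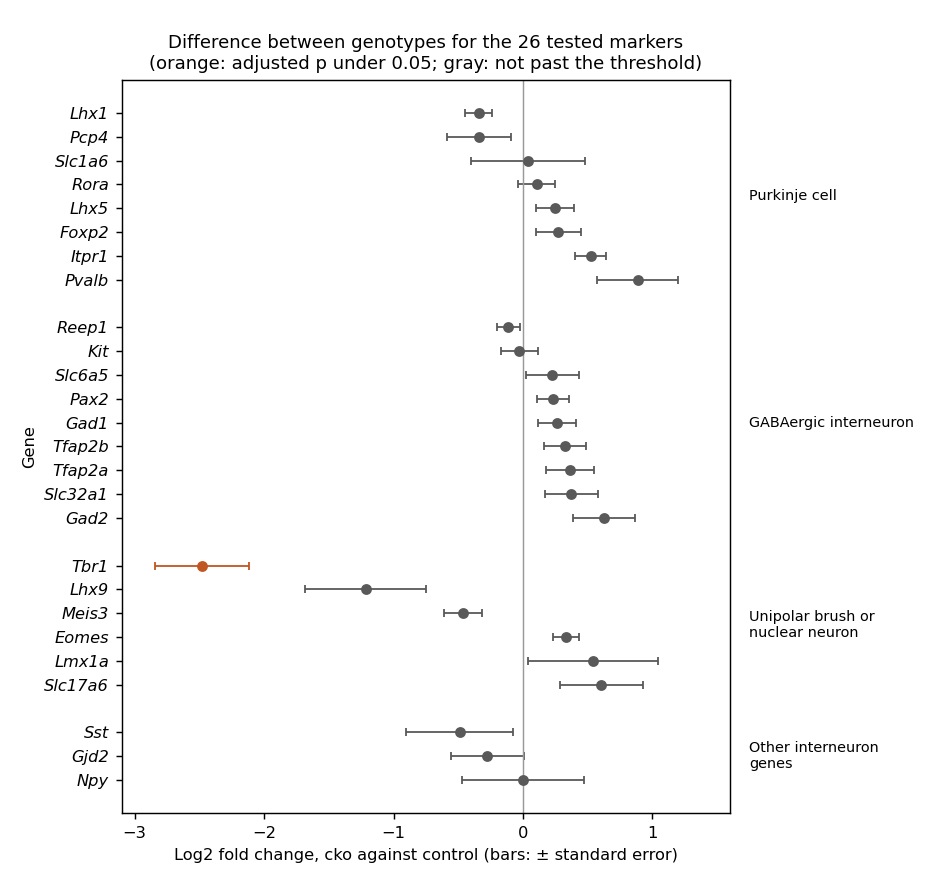
Log2 fold change of cko against control GCps (horizontal axis, bars are ± standard error) for the 26 tested markers by class (vertical axis). Tbr1 (orange, -2.48) passed at an adjusted p under 0.05, and the 25 gray genes did not.

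Across all 32 markers 26 were tested, 1 was lower and 0 were higher by edgeR, where 0.773% of all genes tested were lower and 0.809% higher. Before adjustment 8 were under 0.05, against 13.6% of all genes tested. In DESeq2 2 of 26 passed (Tbr1 and Itpr1), against 5.53% of all genes. The libraries of the genotypes did not overlap for 15 of the 26, with 10 higher and 5 lower in the cko libraries. Among all genes tested the genotypes did not overlap for 43.9%, with 22.7% higher and 21.2% lower. The median log2 fold change of the 26 markers was 0.23.

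The summed CPM of a class had a log2 ratio of cko to control of -0.07 for Purkinje cells, 0.10 for interneurons and 0.30 for unipolar brush and nuclear neurons, with no test. With 1 library left out these ran from -0.12 (without cko replicate 2) to -0.03 (without cko replicate 1), from 0.0082 (without control replicate 1) to 0.19 (without control replicate 2), and from 0.13 (without cko replicate 1) to 0.45 (without control replicate 1). The Purkinje cell list summed to 235 and 238 CPM in control and to 218 and 232 CPM in cko libraries, and Lhx1 alone gave 60.5% of the sum over all 4 libraries. Without Lhx1 and Lhx5, a division made after their values were seen, the other 10 genes summed to 49.3 and 48.2 CPM in control and to 67.9 and 59.9 CPM in cko libraries, which is the opposite direction. Among these, Itpr1 alone averaged 27.6 CPM in control and 39.7 CPM in cko libraries, while Pcp2, Pcp4 and Shh had lower means in cko libraries. Per kb of exon the 10 genes summed to 7.98 and 7.10 in control and to 10.6 and 8.04 in cko libraries. Of the genes left out, Lhx1 had the lower mean in cko libraries and Lhx5 the higher one. The interneuron list summed to 239 and 271 CPM in control and to 265 and 281 CPM in cko libraries, and the list of unipolar brush and nuclear neurons to 152 and 124 CPM in control and to 189 and 152 CPM in cko libraries. For the last of these, Slc17a6 gave 45.8% of the sum over all 4 libraries, and the cko libraries differed from each other by more than the means of the genotypes did. In bulk libraries such as these, fewer cells of a type and less RNA per cell cannot be told apart.

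**Figure D4:**
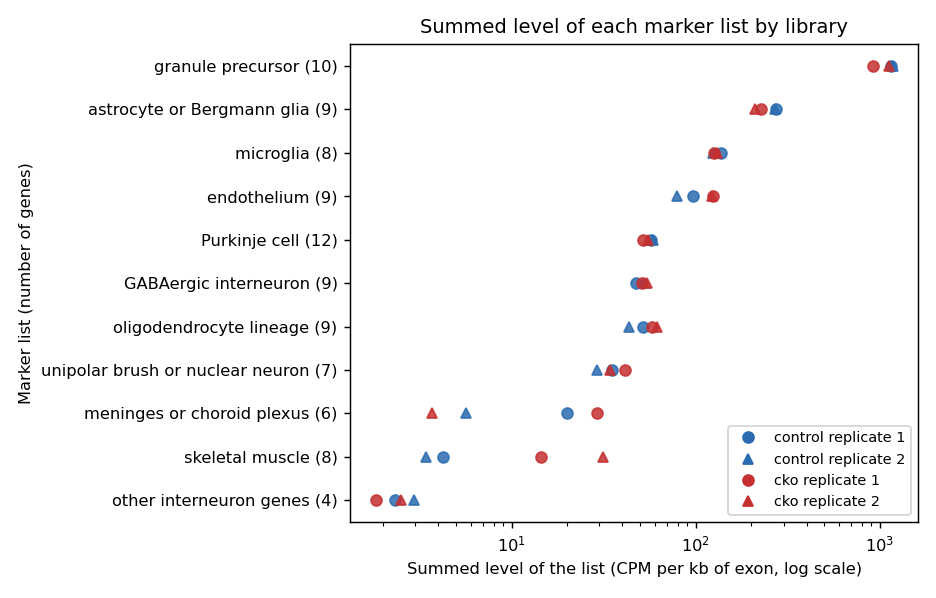
Summed level of each marker list in CPM per kb of exon (horizontal log axis), with the number of genes of each list in parentheses (vertical axis); blue symbols are control and red symbols cko libraries, circles replicate 1 and triangles replicate 2. Granule precursor genes sum to a control mean of 1164 CPM per kb, Purkinje cell genes to a control mean of 57.7 and interneuron genes to one of 49.8. Lhx1 and Lhx5 give 50.2 of the Purkinje cell mean.

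Markers of other cells were measured in the same libraries. Per kb, 10 granule precursor genes summed to a mean of 1164 CPM per kb in control libraries, 9 astrocyte or Bergmann glia genes to 272, 8 microglial genes to 131 and 9 endothelial genes to 88.0. The Purkinje cell list summed to 57.7, the interneuron list to 49.8 and the list of unipolar brush and nuclear neurons to 32.03 CPM per kb. Of the Purkinje cell sum, Lhx1 and Lhx5 gave 50.2 and the other 10 genes 7.54 CPM per kb. Among those 10, Pcp2, Ppp1r17, Skor2, Shh and Slc1a6 together gave 0.293 CPM per kb. Skeletal muscle genes summed to between 7.13 and 9.32 CPM in control and to between 31.9 and 66.5 CPM in cko libraries, and 4 of the 8 were higher in edgeR's quasi-likelihood test. Endothelial genes summed to between 254 and 292 CPM in control and to between 389 and 400 CPM in cko libraries, where 0 of 9 passed the test and 8 had an unadjusted p under 0.05. Of 9 oligodendrocyte lineage genes 1 was higher. The summed level of 6 meningeal or choroid plexus genes was higher in replicate 1 of each genotype, at 58.5 and 29.9 CPM in control and at 61.4 and 25.2 CPM in cko libraries, though not for every gene of the list. No gene of these lists was at 0 in every library. Their part in the values of Tbr1, Itpr1 and the interneuron genes was not tested.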

How the data were processed

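GCps of P7 mice were profiled by RNA-Seq in 2 control and 2 cko libraries. The deposited values are raw whole-number counts per Ensembl gene. The authors made them by trimming (Trim Galore 0.4.1), alignment to mm10 (TopHat2 2.0.14) and intersection-strict counting (HTSeq 0.6.1p1), according to the submitters' processing notes and the study's methods. Whether strand was used in counting was not given there.

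Names, coordinates and exonic lengths came from GENCODE vM21 on GRCm38 (mm10). Genes were kept with filterByExpr (16436 of 38924), scaled by TMM and tested with edgeR 4.0.16 in R 4.3.3 (quasi-likelihood test in its robust form, genotype as the only term), with Benjamini-Hochberg adjustment over all genes kept and a threshold of 0.05. Standard errors are the log2 fold change divided by the square root of F. Of 2 gene models named Dlx6os1, both at 0, the longer was used. Means and SDs are over 2 libraries. Libraries of 1 genotype differed by far more than sampling noise (chi-square per degree of freedom 47.2 and 87.7). DESeq2 1.42.0, RLE size factors, no filter, the replicate number as a block and each library left out were tried as alternatives.

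All 32 markers were to be named, and from each list of further genes the called ones or, failing those, the one with the highest level; some genes of these lists are not reported here. Members and lists were chosen with earlier results of these data known.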

Additional observations from a re-analysis of the deposited data

How the results depend on the processing

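The number of markers called was 1 (Tbr1) and also 1 with RLE size factors. It was 2 in DESeq2 and 2 without the filter on low counts, where Itpr1 was added as higher. Leaving out 1 library gave between 0 and 3, with 0 without control replicate 1 or cko replicate 1 and 3 (Tbr1, Itpr1 and Pvalb) without cko replicate 2; a lone library is then assumed to vary like the other genotype. The number of all genes called was 260, and 890 in DESeq2, 727 without the filter, and between 83 (without control replicate 2) and 602 (without cko replicate 2) with 1 library left out. With the replicate block 1010 genes and 5 markers passed (Tbr1, Lhx1 and Meis3 lower, Itpr1 and Slc17a6 higher). The replicate numbers are not stated to mark shared animals, and deviations of same-numbered libraries correlated at 0.187 over genes with only 2 pairs, so the block is given as a description. Of the 26 tested markers 21 kept their sign in all 8 alternatives. The sign changed with 1 library left out for Slc1a6 (-0.42 to 0.42), Kit (-0.18 to 0.14), Gjd2 (-0.72 to 0.077), Sst (-0.88 to 0.011) and Npy (-0.36 to 0.42, and 0.027 with the replicate block). The summed log2 ratio of the other interneuron genes was -0.28, and ranged from -0.66 (without cko replicate 2) to 0.014 (without cko replicate 1). Causes of these shifts were not tested. Markers with only a few reads, such as Pcp2, allow no statement on a difference at this depth.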
